A study of Mus musculus with 4 samples.

Results

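Axon guidance genes encode the cues and receptors that steer growing neurites and, in the adult cortex, remain in use at synapses, on glia and on vessels. They were followed here as 69 genes, 35 ligands and 34 receptors, found by their symbols among the 32285 gene rows of the count matrices. The ligands were 20 semaphorins, 8 ephrins, 3 Slits, 2 netrins and 2 netrin-Gs. The receptors were 14 Eph receptors, 9 plexins, 2 neuropilins, 4 Robos and 5 netrin receptors. The name search also caught 5 rows that are no guidance genes, namely Unc50, Unc5cl and the Plxna4 antisense transcripts Plxna4os1, Plxna4os2 and Plxna4os3. None of these 5 had more than 13.2 CPM (counts per 1000000 UMIs) in any cell class, and they were left out of all counts of guidance genes.

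The nuclei came from the cerebral cortex of wild-type (WT) C57BL/6J mice of both sexes at postnatal day (PND) 90. The saline group received saline and the risperidone group received 4 mg/kg of risperidone intraperitoneally, once a day from PND 22 for 21 days. The labels name a washout of 43 days, which counted from the last dose ends before PND 90. Risperidone, an antipsychotic that blocks dopamine and serotonin receptors, was diluted from a stock in DMSO, and whether the saline group received DMSO is not given in the sources used here. Each condition was 1 pool of right hemicortices from 10 mice, as many males as females, which was run on 2 Chromium lanes named here lane 1 and lane 2. Lanes are technical runs of a pool and each condition has 1 pool, so no test between conditions was possible, and every interval below covers counting error only.

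In the Slit pathway, secreted Slit proteins bind Robo receptors and repel axons. Semaphorins, secreted or bound to the membrane, act through plexins, which several secreted forms reach through the co-receptors Nrp1 and Nrp2. Ephrins are tethered to the membrane and signal in both directions with Eph receptors, and netrins attract axons through Dcc or repel them through the Unc5 receptors.

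The region upstream of the gene start is shown for 4 genes that the comparison of the pools returns to. Nrp2 and Unc5a were lower in glutamatergic neurons, PV interneurons (PV-INs) and Sst interneurons (Sst-INs) of the risperidone pool, and Sema3a was the guidance gene higher in glutamatergic neurons, while Slit2 was higher in 3 of their layer classes. With the RNA estimated from other cells taken out, Nrp2 and Unc5a were too low to be compared in PV-INs, as was Unc5a in Sst-INs, and Sema3a lay just under the size asked for. Slit2 was then higher in layer 5 extratelencephalic neurons alone among the layer classes. Without risperidone lane 2, Unc5a was under the size asked for in PV-INs and Sst-INs. Each window runs from 250 to 51 bases before the RefSeq start on GRCm38.p6, 5′ to 3′ on the plus strand, and no exon of the GENCODE vM21 annotation overlaps it. Capitals mark the GC box, GGGCGG or CCGCCC on the other strand.
Nrp2, chr1:62703067-62703266: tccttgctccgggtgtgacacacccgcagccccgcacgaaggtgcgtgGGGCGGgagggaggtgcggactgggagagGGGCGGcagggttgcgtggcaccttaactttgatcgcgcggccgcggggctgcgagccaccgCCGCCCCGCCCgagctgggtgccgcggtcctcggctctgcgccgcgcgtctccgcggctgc
Unc5a, chr13:54949161-54949360: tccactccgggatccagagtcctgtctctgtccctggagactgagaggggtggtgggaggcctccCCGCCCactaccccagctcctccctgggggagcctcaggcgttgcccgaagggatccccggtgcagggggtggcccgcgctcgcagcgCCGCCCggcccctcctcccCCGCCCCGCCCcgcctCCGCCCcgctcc
Slit2, chr5:47982905-47983104: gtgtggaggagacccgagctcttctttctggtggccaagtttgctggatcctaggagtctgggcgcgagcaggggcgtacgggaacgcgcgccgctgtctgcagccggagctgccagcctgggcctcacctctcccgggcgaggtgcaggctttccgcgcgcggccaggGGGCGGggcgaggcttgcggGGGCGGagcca
Sema3a, chr5:13396534-13396733: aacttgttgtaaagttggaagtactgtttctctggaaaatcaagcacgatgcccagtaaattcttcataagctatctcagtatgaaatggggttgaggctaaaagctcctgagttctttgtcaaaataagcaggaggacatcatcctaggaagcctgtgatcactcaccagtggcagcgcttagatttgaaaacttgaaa
The windows of Nrp2, Unc5a and Slit2 held 4, 5 and 2 GC boxes, some of them overlapping, and 75.5%, 76.0% and 71.5% of their bases were G or C. The Sema3a window lies in an intron of the longer GENCODE gene model, held no GC box and had 41.0% G or C. Of the 32817 RefSeq windows of this length, 24.6% held a GC box, and so did 43 of the 75 windows of the 59 guidance genes that matched by symbol. The motif TGACG, or CGTCA on the other strand, was in none of the 4 windows, in 5 of the 75 and in 12.7% of all windows. The motif TATAAA, or TTTATA, was in none of the 4, in 0 of the 75 and in 9.14% of all windows. These matches describe the letters and say nothing of binding.

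The matrices list 23450 to 29986 nuclei and 119736937 to 203675013 unique molecular identifiers (UMIs) per lane. The median number of UMIs per nucleus was 3297 and 4049 for saline and 5648 and 7766 for risperidone, and the shallowest listed nucleus had 1364 and 1630 UMIs for saline and 500 in either risperidone lane. After filters 21099 to 26385 nuclei per lane were used, and 153 to 221 barcodes were shared by any pair of lanes. Clusters made without the guidance genes were named from marker genes. They gave 55961 glutamatergic neurons, 2599 PV-INs, 2046 Sst-INs, 1701 Vip interneurons, 1635 Lamp5 interneurons, 4138 astrocytes, 1608 oligodendrocytes, 1413 oligodendrocyte precursor cells (OPCs), 312 endothelial and 796 mural or fibroblast-like nuclei. Left out of the ordering of classes were 177 microglia, of which 21 were from saline, 1595 nuclei of striatal-type spiny projection neurons, a type of the striatum rather than the cortex, and 22572 nuclei of no class.

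Markers of cells that do not belong to a class were present in every class, and in most classes their level was lower in the risperidone lanes. In glutamatergic neurons the median of 35 glial and vascular markers stood at 30.1% and 29.7% in saline lanes, and 17.5% and 16.3% in risperidone lanes of their level in the whole lane. In PV-INs this measure was 28.9% and 23.9% in saline lanes, and 14.0% and 14.3% in risperidone lanes, and in Sst-INs 27.9% and 31.98% in saline lanes, and 13.7% and 13.7% in risperidone lanes. In astrocytes, where 10 neuronal markers gave it, it was 43.7% and 39.7% in saline lanes, and 27.5% and 29.1% in risperidone lanes, and in oligodendrocytes 62.4% and 57.7% in saline lanes, and 43.5% and 39.1% in risperidone lanes. The lanes of the pools overlapped in this measure in endothelial, mural or fibroblast-like and claustrum-like nuclei, at 16.4% to 34.7%, 33.2% to 44.4% and 18.7% to 25.1%. The share of a gene's level that RNA of other cells would give was estimated from this measure for every class and lane. For this the measure was multiplied by the gene's level in the whole lane, the class itself included. The share thus also counts RNA of the class, and it can exceed the gene's level there. That share is printed beside the results for many single genes and as counts of genes, and its part in the differences between pools was not tested.

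Levels are given in CPM, the UMIs of a gene in the nuclei of a class per 1000000 UMIs of those nuclei. They are not per length and are compared for 1 gene between classes, never between genes. Of the 69 guidance genes, 61 reached a mean of 10 CPM over the 4 lanes in at least 1 of the 10 classes, and 32 reached it in all 10. The 8 that stayed under it in every class were Epha1, Epha2, Epha8, Efna2, Efna3, Efna4, Efnb1 and Sema3f. For 33 genes all 4 lanes of the highest class lay above all 4 lanes of the second class, and 58 of the 61 kept their highest class once the RNA estimated from other cells was taken out. The highest class was then mural or fibroblast-like cells for Slit2, Sst-INs for Sema6b and oligodendrocytes for Sema6a. The highest class was endothelial for 11 genes, glutamatergic for 10, Lamp5 interneurons and OPCs for 7 each, mural or fibroblast-like cells and oligodendrocytes for 6 each, PV-INs for 5, astrocytes for 4, Sst-INs for 3 and Vip interneurons for 2. Endothelial nuclei were few, 73 from saline and 239 from risperidone, so their rank is imprecise. For Sema4c, Ephb4, Plxnd1, Efnb2 and Sema6a their lanes overlapped those of the second class. Rankings of cell classes below are among these 10, without microglia and striatal-type neurons.

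**Figure D1:**
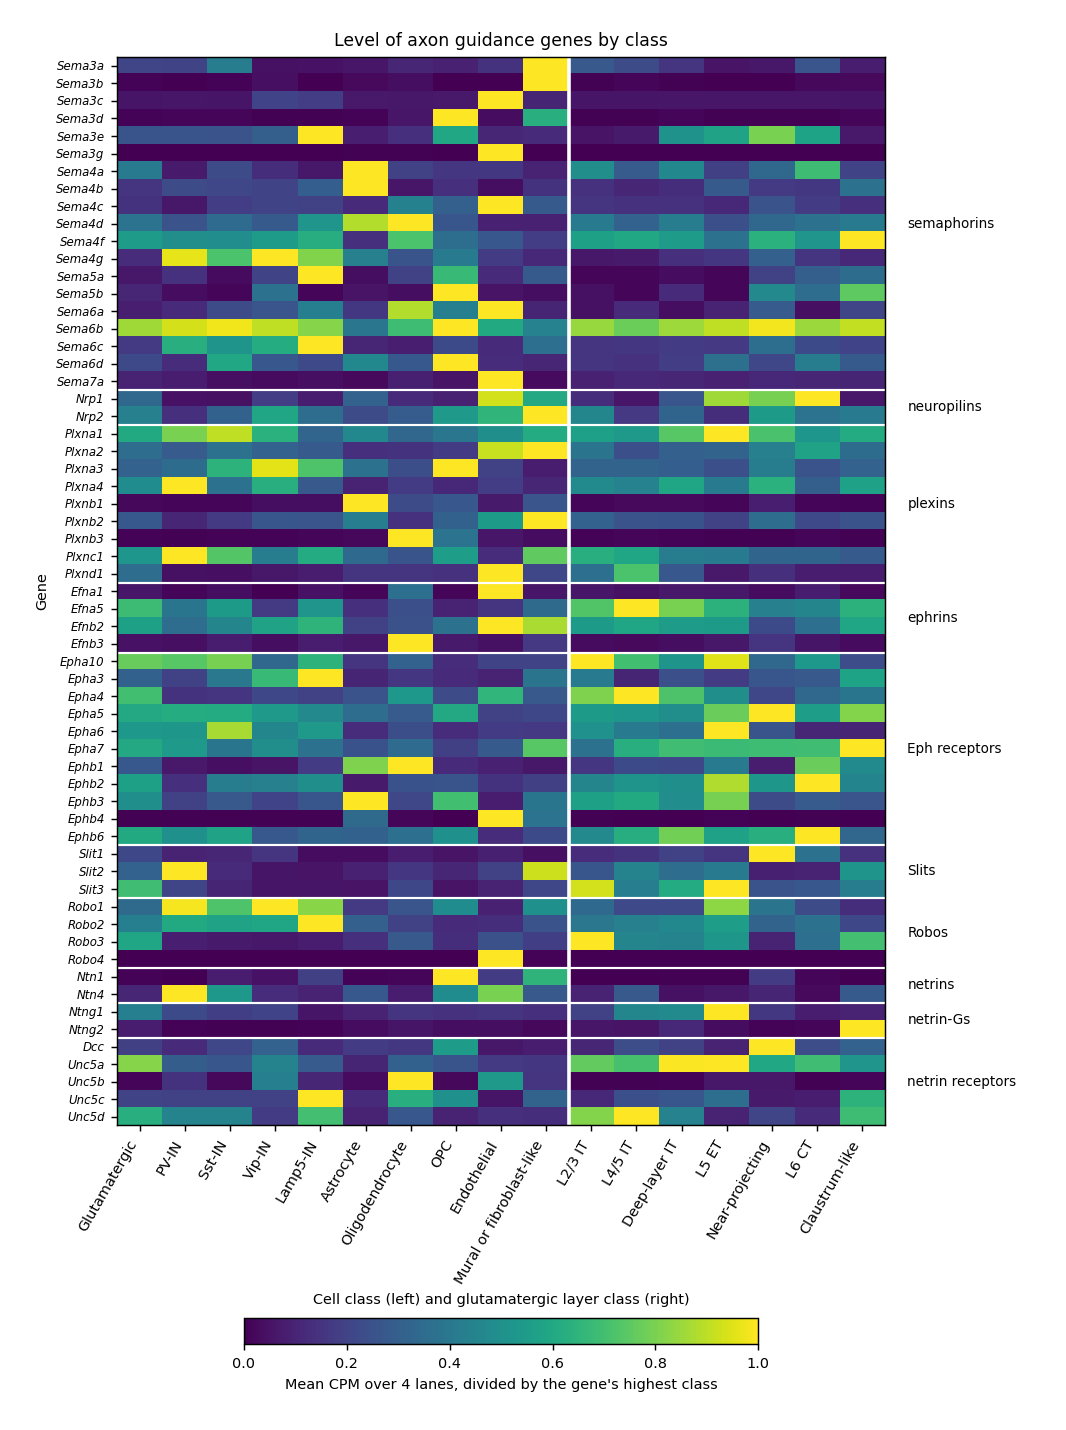
Level of the 61 guidance genes that reached 10 CPM in a class. Columns are the 10 cell classes and, right of the line, the 7 layer classes of glutamatergic neurons, and the colour is the mean CPM over the 4 lanes divided by that of the gene's highest column. Slit3 is brightest among glutamatergic columns, Sema3c, Sema7a and Robo4 in the endothelial column, and Plxnb3 and Efnb3 in the oligodendrocyte column.

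Of the Slit ligands, Slit3 and Slit1 were highest in glutamatergic neurons and Slit2 in PV-INs, or in mural or fibroblast-like cells once RNA of other cells was taken out. Slit3 in glutamatergic neurons had 1611 and 1587 CPM in the saline lanes and 1234 and 1246 CPM in the risperidone lanes, against 428 CPM on average in PV-INs and 113 CPM in Lamp5 interneurons. Its lanes in glutamatergic neurons lay above those of every other class of the ordering. Striatal-type neurons, left out of the ordering, had 2223 and 2182 CPM in the saline lanes and 1305 and 1299 CPM in the risperidone lanes. In Lamp5 interneurons no Slit3 was left once RNA of other cells was taken out. Slit2 in PV-INs had 583 and 593 CPM in the saline lanes and 786 and 751 CPM in the risperidone lanes. In mural or fibroblast-like cells it had 684, 573, 605 and 647 CPM, so these lanes and those of PV-INs overlapped. Both were above glutamatergic neurons, at 213 CPM, and Sst-INs, at 82.2 CPM. After each nucleus was thinned to 2000 UMIs, a UMI of Slit2 was found in 55.2% to 68.2% of PV-INs and 4.10% to 9.70% of Lamp5 interneurons, the class where it was lowest. Without thinning the shares were 65.2% to 85.6% and 7.98% to 19.0%. Slit1 reached 94.3 CPM in glutamatergic neurons and 65.0 CPM in Vip interneurons, with lanes that overlapped.

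The Robo receptors were divided between interneurons, projection neurons and vessels. Robo1 was highest in Vip interneurons, with 2024, 2180.5, 2506 and 2429.5 CPM in saline lane 1, saline lane 2, risperidone lane 1 and risperidone lane 2, the order of every set of 4 values below. PV-INs had 2132, 2184, 2429 and 2264 CPM of it, which do not stand apart from Vip interneurons, and glutamatergic neurons had 790.4 CPM on average. Robo2 was highest in Lamp5 interneurons, with 1578, 1470.4, 1879 and 1968 CPM, apart from all other classes, of which PV-INs came next at 1049 CPM. Robo3 was highest in glutamatergic neurons, at 31.9, 30.3, 43.7 and 43.2 CPM. Robo4, the endothelial Robo, had 64.8, 101, 183 and 172 CPM in endothelial nuclei, from 5, 10, 22 and 35 UMIs, and 0.0849 CPM in glutamatergic neurons. Few endothelial nuclei were found in the saline pool, 73 against 239, so their levels are imprecise.

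**Figure D2:**
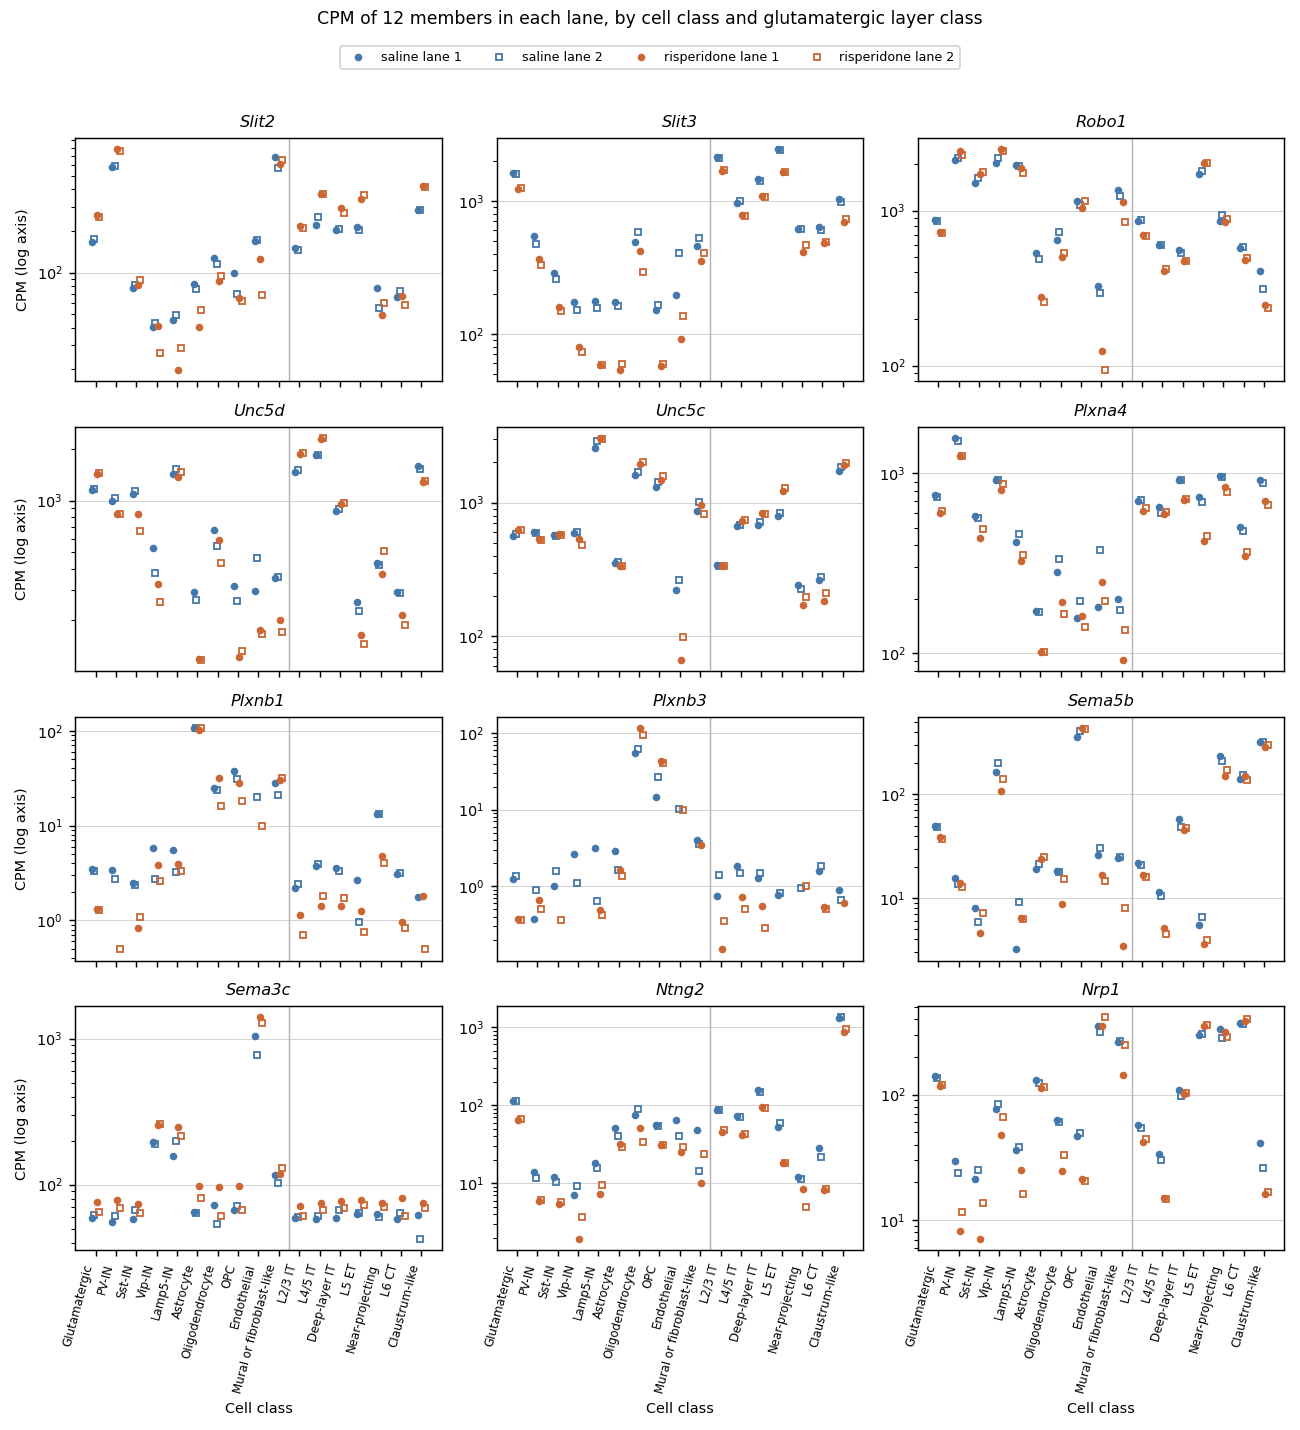
CPM (log axis) of 12 guidance genes in each of the 4 lanes, by cell class and, right of the line, by glutamatergic layer class. Filled circles are lane 1 and open squares lane 2, blue for saline and orange for risperidone, and lanes at 0 are not drawn. For Slit2, Plxnb1, Plxnb3, Sema3c and Ntng2 every lane of the highest class or layer class lies far above most other classes, although lanes of a pool can differ among themselves, as for Plxnb3 in OPCs.

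Among the semaphorins, vessels and OPCs held most of the class-restricted genes. Sema3c, a secreted class 3 semaphorin, had 1037, 777, 1398 and 1279.8 CPM in endothelial nuclei, above all other classes, followed by Vip interneurons at 226 CPM and Lamp5 interneurons at 205 CPM. Sema7a, which is anchored to the membrane by a lipid, averaged 312 CPM in endothelial nuclei and 29.9 CPM in glutamatergic neurons, the next class. Sema3g was found at 34.4 CPM in endothelial nuclei and at or near 0 elsewhere. Sema3a, a repellent that needs a neuropilin, was highest in mural or fibroblast-like cells at 322, 439, 350.2 and 325 CPM, and among neurons in Sst-INs at 130.1, 119, 171 and 188 CPM. The lanes of these classes lay apart. Sema3d reached 292, 309, 461 and 454 CPM in OPCs and 239 CPM in mural or fibroblast-like cells, but 2.44 CPM in Vip interneurons. Sema5b was at 356, 410.4, 439 and 428 CPM in OPCs and 153 CPM in Vip interneurons, and Sema6d, a membrane-spanning form, averaged 1863 CPM in OPCs and 1113 CPM in Sst-INs. Lamp5 interneurons were highest for Sema3e, at 278, 245, 305 and 272 CPM, and for Sema5a, at 691, 704, 678 and 738 CPM. Sema5a was at 19.9 CPM in Sst-INs. Astrocytes were highest for Sema4a, at 68.9 CPM, and Sema4b, at 87.3 CPM, with 26.1 CPM of the latter in Lamp5 interneurons. Sema4d was highest in oligodendrocytes at 177 CPM, but its lanes overlapped those of astrocytes.

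Of the 9 plexins, receptors of the semaphorins, 3 were highest in glia, 3 in neurons and 3 in vascular classes. Plxnb1 had 107, 107, 103 and 107 CPM in astrocytes, the lanes of both pools within a narrow range, then 28.7 CPM in OPCs and 2.36 CPM in glutamatergic neurons. At 2000 UMIs per nucleus a UMI of Plxnb1 was found in 18.0% to 19.9% of astrocytes and 0.274% to 0.773% of glutamatergic neurons, and without thinning in 15.02% to 22.0% and 0.840% to 1.64%. Thinning left out 577, 343, 909 and 408 of the 1002, 1007, 1145 and 984 astrocytes, those of fewer UMIs. Plxnb3 had 54.3, 62.2, 117 and 94.8 CPM in oligodendrocytes and 14.7, 26.7, 42.7 and 40.8 CPM in OPCs, and 0.835 CPM in glutamatergic neurons. Plxna4 was highest in PV-INs at 1568, 1505, 1241 and 1243 CPM, above Vip interneurons at 879 CPM, and Plxnc1 was also highest in PV-INs at 155 CPM. Plxna2 was high in mural or fibroblast-like and endothelial nuclei, at 906 and 832 CPM, whose lanes overlapped, and Plxnd1, a vascular plexin, averaged 89.9 CPM in endothelial nuclei. The neuropilin Nrp1 was highest in endothelial nuclei at 350.1, 313, 349 and 412 CPM, above mural or fibroblast-like cells at 230.4 CPM. Nrp2 was highest in mural or fibroblast-like cells at 109.6 CPM and close to it in endothelial nuclei at 71.9 CPM and Vip interneurons at 64.7 CPM, with overlapping lanes.

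Of the Eph receptors, Epha6 was highest in Sst-INs at 1457, 1452, 1590.4 and 1641 CPM, above Lamp5 interneurons at 951 CPM and glutamatergic neurons at 946 CPM. Epha3 was highest in Lamp5 interneurons at 324, 358, 437 and 422 CPM. Ephb1 was highest in oligodendrocytes at 765, 755, 674 and 749 CPM and next in astrocytes at 593 CPM, apart from glutamatergic neurons at 204 CPM and Sst-INs at 29.4 CPM. Ephb4, the Eph receptor of veins, was found at 25.9, 10.1, 91.5 and 39.2 CPM in endothelial nuclei. Epha5, at 587 CPM in PV-INs and 585 CPM in Sst-INs, and Epha10, at 135 CPM in Sst-INs and 130.3 CPM in glutamatergic neurons, did not separate their highest classes beyond the spread of lanes. Of the ephrins only 4 reached the minimum. Efna5 was highest in glutamatergic neurons at 711, 721, 746 and 752 CPM, above Sst-INs at 580.4 CPM. Efnb3 was at 72.4, 50.2, 91.4 and 80.6 CPM in oligodendrocytes and at 2.81 CPM in Vip interneurons, Efnb2 averaged 73.0 CPM in endothelial nuclei, and Efna1 averaged 14.0 CPM there.

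The netrins Ntn1 and Ntn4 and their receptors were highest in different classes. Ntn1 was at 301, 335, 366 and 363 CPM in OPCs and 153, 181, 224 and 327 CPM in mural or fibroblast-like cells, against 0.858 CPM in PV-INs. Ntn4, a netrin of basement membranes, was highest in PV-INs at 87.9, 85.1, 81.7 and 88.6 CPM. Dcc, the attractive receptor, had 2484, 2520.4, 2691 and 2645 CPM in OPCs, above Vip interneurons at 1463 CPM. Unc5c, a repulsive receptor, had 2578, 2893, 3036 and 3019.5 CPM in Lamp5 interneurons, 1813 CPM in oligodendrocytes and 1451 CPM in OPCs. Unc5d averaged 1454 CPM in Lamp5 interneurons and 1301 CPM in glutamatergic neurons, with overlapping lanes, Unc5b was highest in oligodendrocytes at 98.1 CPM, and Unc5a in glutamatergic neurons at 46.4 CPM. The netrin-Gs, membrane-anchored relatives that act at synapses, were both highest in glutamatergic neurons, Ntng1 at 234 CPM and Ntng2 at 89.6 CPM. The lanes of Ntng2 there overlapped those of oligodendrocytes, at 74.0, 88.5, 50.6 and 34.1 CPM.

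The other genes at the minimum had their highest level in glutamatergic neurons for Epha4, Ephb2 and Ephb6, in Lamp5 interneurons for Sema6c, in Sst-INs for Plxna1 and in Vip interneurons for Sema4g. Ephb3 was highest in astrocytes, Sema4f in oligodendrocytes, Plxna3 and Sema6b in OPCs, Sema4c and Sema6a in endothelial nuclei, and Epha7, Plxnb2 and Sema3b in mural or fibroblast-like cells. Of these 15 genes, Sema6c and Sema3b alone had all lanes of their highest class above those of the second.

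Within glutamatergic neurons the guidance genes differed strongly by layer class. Here 48 genes reached 10 CPM in at least 1 of 7 layer classes, 25 had all lanes of their highest layer class above those of the next, and 22 were at least 5 times as high in the highest as in the lowest layer class. Of these genes Ntng2 differed most between its highest and its lowest layer class. It had 1298 and 1334 CPM in the saline lanes and 870.4 and 939 CPM in the risperidone lanes in claustrum-like neurons. It then had 123 CPM in deep-layer intratelencephalic (IT) neurons and 9.20 CPM in near-projecting neurons. At 2000 UMIs per nucleus, 79.0% to 89.7% of claustrum-like and 0.933% to 2.19% of near-projecting nuclei held a UMI of it, and without thinning 93.6% to 98.8% and 2.39% to 4.11%. Ntng1 was instead highest in layer 5 extratelencephalic (ET) neurons, at 476, 480.1, 588 and 630.4 CPM, and lowest in layer 6 corticothalamic (CT) neurons, at 41.3 CPM.

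Near-projecting neurons were the highest layer class for Dcc, at 4129, 4119, 5396 and 5034 CPM against 1462 CPM in claustrum-like and 462 CPM in layer 5 ET neurons. They were also highest for Slit1, at 418, 448, 437 and 448 CPM, against 164 CPM in layer 6 CT and 55.5 CPM in layer 2/3 IT neurons. The netrin Ntn1 averaged 60.3 CPM in near-projecting neurons and 1.00 CPM in layer 4/5 IT neurons. Sema3e was highest in near-projecting neurons too, at 219 CPM, and lowest in layer 2/3 IT neurons, at 14.9 CPM.

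Layer 5 ET neurons, which project below the cortex, were highest for Robo1, at 1715, 1795, 2036 and 2036 CPM against 299 CPM in claustrum-like neurons, and for Epha6, at 1769 CPM against 184 CPM. Slit3 averaged 2047 CPM in layer 5 ET and 1906 CPM in layer 2/3 IT neurons, with overlapping lanes, and 527 CPM in near-projecting neurons. The receptor Unc5d was highest in upper layers, with 1835, 1855, 2303 and 2311 CPM in layer 4/5 IT, 1468, 1518, 1877 and 1905 CPM in layer 2/3 IT and 199 CPM in layer 5 ET neurons, of which 10.2 CPM remained once RNA of other cells was taken out. Efna5 was also highest in layer 4/5 IT neurons, at 1066 CPM, and lowest in near-projecting neurons, at 464 CPM.

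Layer 6 CT neurons were highest for Nrp1, at 373, 368, 384 and 403 CPM, followed by layer 5 ET at 327 CPM, and Nrp1 averaged 23.4 CPM in layer 4/5 IT neurons with nothing left after RNA of other cells was taken out. They were also highest for Ephb1, at 567 CPM against 58.4 CPM in near-projecting neurons, and for Plxna2, at 523 CPM against 222 CPM in layer 4/5 IT neurons. Claustrum-like neurons were highest for Sema5b, at 308 CPM against 4.90 CPM in layer 5 ET neurons, and for Unc5c, at 1859 CPM against 209.5 CPM in near-projecting neurons. Robo3, in contrast, was highest in layer 2/3 IT neurons at 63.5 CPM and lowest in near-projecting neurons at 6.34 CPM.

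The comparison of the risperidone with the saline pool asked whether adolescent treatment left a difference in adult cortex. Differences are log2 ratios of risperidone to saline with the lanes of a pool added and scaled by TMM factors, which centre the bulk of genes. A gene was past the rule of size when it had at least 10 CPM on average, a ratio of at least 0.5 in size and both risperidone lanes beyond both saline lanes. The size is the one the study used, and the rule is no test. In glutamatergic neurons 43 guidance genes reached the minimum. Of these 5 were lower, Ntng2, Nrp2, Slit1, Ephb2 and Unc5a, where 7.09% of the 7196 genes of the class were, and 1 was higher, Sema3a, where 4.29% of genes were. The median ratio of the 43 was -0.19 and that of all genes -0.02. A ratio below 0 was found for 32 of the 43 and for 52.2% of all genes, and the lanes of the pools did not overlap for 89.5% of all genes whatever the size, so lanes that stand apart are the usual case here. By role, 2 of 20 ligands were lower and 1 higher, and 3 of 23 receptors were lower and 0 higher.

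**Figure D3:**
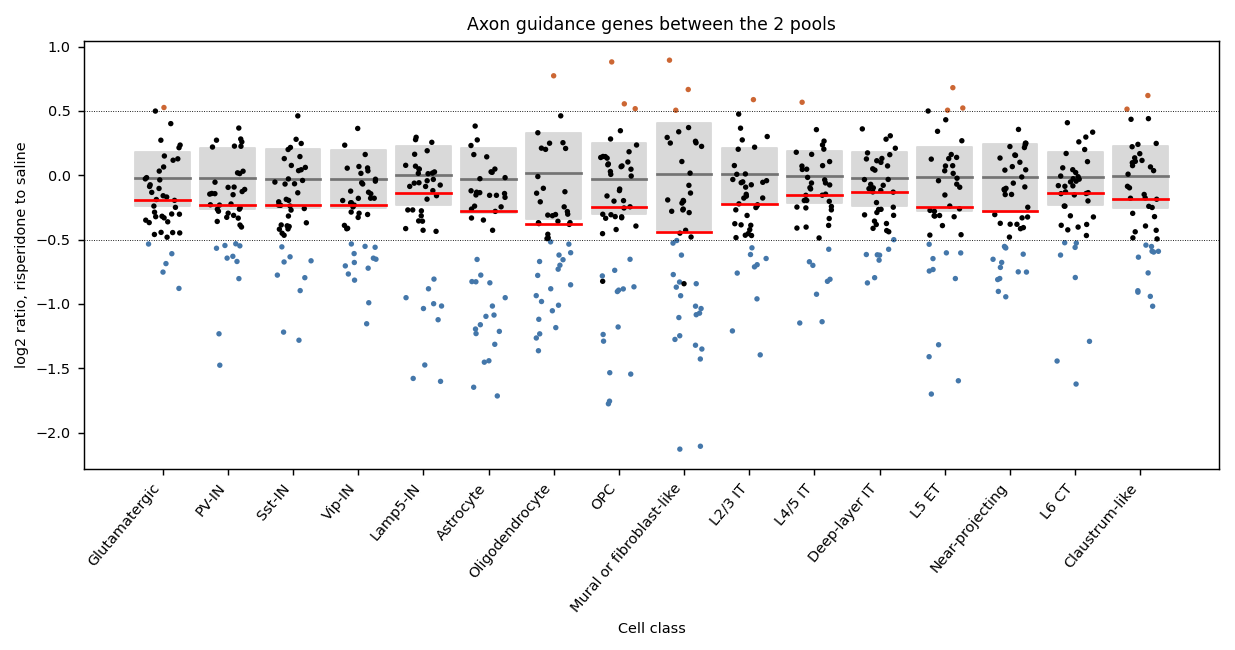
Log2 ratio of the risperidone to the saline pool for each guidance gene with at least 10 CPM, by cell class and layer class. Blue points are past the rule of size and lower, orange points past it and higher, black points not past it, the red line is their median, and the grey box and line are the quartiles and the median of all genes of the class. The red line is below the grey line in all 16 classes, from -0.13 in deep-layer IT neurons to -0.44 in mural or fibroblast-like cells.

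Ntng2 had 113 and 114 CPM in the saline lanes and 63.8 and 67.0 CPM in the risperidone lanes of glutamatergic neurons, a ratio of -0.88 (interval -0.91 to -0.85). It was past the rule and lower in all 6 layer classes where it reached the minimum, including the claustrum-like neurons where it is highest, with -0.59 (interval -0.66 to -0.52). The share of its saline level estimated from other cells was 1.72% in claustrum-like neurons and 108% in layer 6 CT neurons, and with that RNA taken out it was still lower in 5 of the layer classes and under the minimum in layer 6 CT neurons. In layer 5 ET neurons it had 52.2 and 58.9 CPM in the saline lanes and 18.4 and 18.1 CPM in the risperidone lanes, so the pools were farther apart at a lower level.

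Nrp2, the neuropilin of several class 3 semaphorins, had 56.8 and 60.1 CPM in the saline lanes and 36.3 and 37.3 CPM in the risperidone lanes of glutamatergic neurons, a ratio of -0.75 (interval -0.80 to -0.71). It was lower in all 7 layer classes, by -0.65 in layer 2/3 IT to -1.32 in layer 5 ET neurons. Other cells were estimated to give 69.3% of its saline level in layer 5 ET and 82.98% in layer 4/5 IT neurons. In both it was under the minimum once that RNA was taken out, while it was still lower in the other 5 layer classes. A UMI of Nrp2 was found at 2000 UMIs per nucleus in 10.1% and 10.5% in saline lanes, and 6.46% and 6.59% in risperidone lanes of glutamatergic neurons. Without thinning the shares were 17.1% and 20.4% in saline lanes, and 16.6% and 21.0% in risperidone lanes, at median depths of 3438, 4280, 5985 and 8292 UMIs, and did not separate the pools. In near-projecting neurons, where Nrp2 was highest among layer classes, it had 73.6 and 80.2 CPM in the saline lanes and 39.5 and 45.3 CPM in the risperidone lanes.

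Slit1 had 116 and 112 CPM in the saline lanes and 74.0 and 75.4 CPM in the risperidone lanes of glutamatergic neurons, with -0.69 (interval -0.72 to -0.65). By layer class its difference was uneven. In near-projecting neurons, its highest class, it had 418 and 448 CPM in the saline lanes and 437 and 448 CPM in the risperidone lanes, which overlap. In layer 5 ET neurons it had 104 and 97.9 CPM in the saline lanes and 35.7 and 35.2 CPM in the risperidone lanes, with -1.60 (interval -1.75 to -1.45). Layer 2/3 IT and claustrum-like neurons were also past the rule, at -0.69 and -0.59, and the other classes were not, at -0.41 in layer 4/5 IT, -0.37 in deep-layer IT and -0.20 in layer 6 CT neurons. When the clusters of glutamatergic neurons were given equal weight in both pools, Slit1 came to -0.49 and was no longer past the rule. With RNA of other cells taken out it was still lower in layer 5 ET and claustrum-like neurons, and at -0.47 in layer 2/3 IT neurons, where 49.9% of its saline level was estimated from other cells.

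Ephb2, an Eph receptor of excitatory synapses, had 129 and 123 CPM in the saline lanes and 86.7 and 87.5 CPM in the risperidone lanes of glutamatergic neurons, with -0.61 (interval -0.64 to -0.58). It was past the rule in 5 of 7 layer classes, and not in layer 6 CT neurons, its highest class, where it had 204 and 193 CPM in the saline lanes and 177 and 175 CPM in the risperidone lanes, nor in claustrum-like neurons, at -0.49. In the 5 classes 12.3% to 31.6% of its saline level was estimated from other cells, and it was lower there without that RNA as well. Unc5a, a netrin receptor, had 55.3 and 52.0 CPM in the saline lanes and 39.9 and 38.5 CPM in the risperidone lanes, with -0.53 (interval -0.58 to -0.49). It was past the rule in layer 5 ET, near-projecting and claustrum-like neurons, at -0.74, -0.75 and -0.55, the latter pair from few UMIs, with 14.9%, 35.3% and 32.9% estimated from other cells, and stayed past it without that RNA.

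Slit2 had 167 and 174 CPM in the saline lanes and 259 and 253 CPM in the risperidone lanes of glutamatergic neurons, a ratio of 0.50 (interval 0.48 to 0.52) that before rounding lies just under the rule. Layer 5 ET neurons had 212 and 204 CPM in the saline lanes and 343 and 362 CPM in the risperidone lanes, and layer 4/5 IT and claustrum-like neurons were past the rule too, at 0.57 and 0.51. In near-projecting and layer 6 CT neurons, where it is low, its ratio was -0.32 and -0.24. Sema3a had 59.0 and 59.2 CPM in the saline lanes and 88.6 and 91.5 CPM in the risperidone lanes of glutamatergic neurons, with 0.53 (interval 0.49 to 0.56), and was past the rule in layer 2/3 IT neurons alone among layer classes, at 0.59 (interval 0.52 to 0.66). The next were layer 6 CT neurons at 0.41, while layer 5 ET neurons were at -0.26. In glutamatergic neurons Slit2 and Sema3a came to 0.46 and 0.43 when clusters had equal weight and to 0.46 and 0.49 when RNA of other cells was taken out, all under the rule. Without that RNA Slit2 was past the rule in layer 5 ET neurons alone among layer classes, at 0.63, and Sema3a in none of them. The 2 pools differed in the share of layer classes, with layer 2/3 IT nuclei at 12.6% of the saline and 17.5% of the risperidone pool and layer 5 ET nuclei at 3.84% and 2.89%. Of the glutamatergic nuclei 9219 were in no layer class, 20.4% of those of the saline and 11.8% of those of the risperidone pool. Most of these were 1 cluster with 4344 saline and 1667 risperidone nuclei.

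Most guidance genes with high counts in glutamatergic neurons were not past the rule. Slit3 had -0.45 (interval -0.46 to -0.44), Unc5d 0.23 (interval 0.23 to 0.24), Epha6 -0.17 (interval -0.18 to -0.16), Dcc -0.25 (interval -0.26 to -0.24) and Robo1 -0.35 (interval -0.36 to -0.34). The lanes of the pools did not overlap for any of these 5, as for most genes of the class. Once RNA of other cells was taken out, Slit3 and Sema6b joined the lower genes, which then were 7 of 43 against 8.18% of all genes, and none was higher, where 3.66% were. For the 5 lower genes the share of the saline level estimated from other cells ran from 24.8% for Ntng2 to 33.0% for Nrp2. This estimate uses a gene's level over all nuclei of the lane, glutamatergic neurons included, so it also counts RNA of these neurons.

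Counted by layer class, the lower guidance genes were 9 of 44 in layer 2/3 IT, 8 of 42 in layer 4/5 IT, 11 of 42 in layer 5 ET, 8 of 43 in deep-layer IT, 13 of 44 in near-projecting, 8 of 42 in layer 6 CT and 11 of 42 in claustrum-like neurons. Of all genes of these classes 6.83%, 6.07%, 12.2%, 6.78%, 10.8%, 7.26% and 9.26% were lower, less than the share of guidance genes in each. The higher guidance genes were 1, 1, 3, 0, 0, 0 and 2, where 5.63%, 4.49%, 6.42%, 4.62%, 9.78%, 4.61% and 8.12% of all genes were higher. At least 50% of the saline level was estimated from other cells for 4 of 9, 6 of 8, 3 of 11, 2 of 8, 3 of 13, 5 of 8 and 3 of 11 of the lower genes. With that RNA taken out, 8 of 40, 4 of 39, 9 of 38, 8 of 40, 12 of 42, 2 of 37 and 10 of 39 were lower, where 7.97%, 5.55%, 13.5%, 7.88%, 9.91%, 6.4% and 10.0% of all genes were, so the share in layer 6 CT neurons was then below that of all genes. Layer classes share the lanes and pools.

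The largest ratios of each layer class were as follows. In layer 2/3 IT neurons they were lower for Sema5a at -1.40, Sema3e at -1.21, Ntng2 at -0.96, Ephb2 at -0.76, Plxnb2, a plexin of class 4 semaphorins, at -0.71, Slit1 at -0.69, Nrp2 at -0.65 and Ephb1 at -0.62. In layer 4/5 IT neurons Sema5a was at -1.15, Nrp1 at -1.14, Nrp2 at -0.92, Ntng2 at -0.82, Sema3e at -0.81, Epha3 at -0.70 and Ephb2 at -0.67, and Robo1 at -0.57. Of the saline level of Sema5a and Sema3e, other cells were estimated to give 181% and 115% in layer 2/3 IT and 187% and 97.5% in layer 4/5 IT neurons. With that RNA taken out, Sema5a and Sema3e were under the minimum in both classes and Nrp1 and Nrp2 in layer 4/5 IT neurons, while Ephb1 and Slit1 in layer 2/3 IT and Robo1 in layer 4/5 IT neurons were not past the rule.

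Layer 5 ET neurons had Ntng2 at -1.70, Slit1 at -1.60, Sema5a at -1.41, Nrp2 at -1.32, Plxna4, a plexin that works with neuropilins, at -0.80, Unc5a at -0.74, Unc5d at -0.73 and Slit3 at -0.65. Higher there, beside Slit2, were Unc5c, with 799.6 and 841 CPM in the saline lanes and 1222 and 1280.3 CPM in the risperidone lanes and 0.52 (interval 0.49 to 0.56), and Epha5, with 557 and 611 CPM in the saline lanes and 877 and 889 CPM in the risperidone lanes and 0.51 (interval 0.46 to 0.55). Other cells were estimated to give 16.6% and 17.6% of their saline level, and neither was past the rule without that RNA. Claustrum-like neurons had Epha3 higher as well, with 148 and 192 CPM in the saline lanes and 278 and 273 CPM in the risperidone lanes, 0.62 (interval 0.46 to 0.78) and an estimate of 16.4%. Lower in them were Nrp1 at -1.02, Epha6 at -0.94, Efnb2 at -0.91, Ntn4 at -0.90, Nrp2 at -0.76, Sema7a at -0.64 and Robo1 at -0.60. In deep-layer IT neurons the genes were Nrp2 at -0.84, Ntng2 at -0.80, Sema5a at -0.66, Sema6a at -0.62, Sema6b at -0.62, Ephb2 at -0.62, Plxnd1 at -0.58 and Slit3 at -0.50. Near-projecting neurons had Nrp2 at -0.94, Efnb2 at -0.90, Plxnb2 at -0.81, Ephb1 at -0.80, Unc5a at -0.75, Sema4a at -0.75, Ntn1 at -0.72 and Sema4f at -0.68. In layer 6 CT neurons Ntng2 was at -1.62, Ntng1 at -1.44, Epha6 at -1.29 and Unc5d at -0.62, all with estimates above 100%, and Nrp2 was at -0.79, Efnb2 at -0.56, Plxna4 at -0.53 and Unc5c at -0.52. With RNA of other cells taken out, Nrp2 and Efnb2 alone of these 8 were past the rule in layer 6 CT neurons. Under the minimum were then also Nrp2 and Sema5a in layer 5 ET, Nrp1 and Epha6 in claustrum-like, Sema5a and Sema6a in deep-layer IT and Efnb2 in near-projecting neurons, and Unc5d in layer 5 ET and Ephb1 and Slit3 in near-projecting neurons were not past the rule.

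In PV-INs 10 of 43 guidance genes were past the rule, all lower, where 9.13% of genes were lower and 7.35% higher. The median ratio was -0.23, and -0.02 over all genes. Nrp1 had 29.8 and 23.8 CPM in the saline lanes and 8.23 and 11.6 CPM in the risperidone lanes, with -1.48 (interval -1.90 to -1.06), and Nrp2 had 23.0 and 19.5 CPM in the saline lanes and 8.56 and 10.4 CPM in the risperidone lanes, with -1.23 (interval -1.68 to -0.80). RNA of other cells was estimated to give 132% of the saline level of Nrp1, more than all of it, and 79.8% of that of Nrp2. For Unc5b, with 21.1 and 15.03 CPM in the saline lanes and 9.88 and 11.6 CPM in the risperidone lanes, and Sema6c, with 19.2 and 21.6 CPM in the saline lanes and 13.5 and 14.1 CPM in the risperidone lanes, the estimate was 9.74% and 8.82%. Their ratios were -0.80 (interval -1.25 to -0.37) and -0.67 (interval -1.07 to -0.28). Slit3 was at -0.64 (interval -0.72 to -0.57), Ephb1 at -0.63 (interval -0.86 to -0.40), Ephb2 at -0.57 (interval -0.89 to -0.25), Slit1 at -0.55 (interval -0.79 to -0.30), Unc5a at -0.55 (interval -0.95 to -0.14) and Efnb2 at -0.53 (interval -0.85 to -0.21). Estimates of at least 50% from other cells were found for 7 of the 10 and for 3 of the 33 genes not past the rule. With that RNA taken out, 4 of 37 genes were lower, Sema6c, Unc5b, Plxna4 and Unc5d, against 7.92% of all genes, and Slit3 and Slit1 had ratios just above 0, at 0.18 and 0.017, not past the rule. Ephb2 and Unc5a were then under the minimum. With clusters weighted alike in both pools, Unc5b and Efnb2 came to -0.48 and -0.44 and were not past the rule, and 8 genes were lower, where 8.7% of all genes were. Slit2 was higher in both risperidone lanes of PV-INs, as given above, but its ratio was 0.28 (interval 0.22 to 0.34).

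In Sst-INs 9 of 43 were past the rule, again all lower, where 8.53% of genes were lower and 6.63% higher, and the median ratio was -0.23 against -0.03 for all genes. Sema5a had 30.4 and 25.3 CPM in the saline lanes and 10.4 and 13.3 CPM in the risperidone lanes, with -1.28 (interval -1.74 to -0.83), and 94.8% of its saline level was estimated from other cells. Nrp1, at -1.22 (interval -1.72 to -0.74), Slit3, at -0.90 (interval -1.03 to -0.77), and Ephb1, at -0.78 (interval -1.13 to -0.42), had estimates above 100%. Nrp2 had 41.4 and 42.9 CPM in the saline lanes and 25.8 and 25.5 CPM in the risperidone lanes, with -0.80 (interval -1.13 to -0.47) and an estimate of 45.8%. Unc5d had 1087 and 1135 CPM in the saline lanes and 831 and 664 CPM in the risperidone lanes, with -0.66 (interval -0.73 to -0.60) from many UMIs and an estimate of 29.4%. The others were Sema7a at -0.67, Unc5a at -0.63 and Efnb2 at -0.56. At least 50% was estimated from other cells for 6 of the 9 and for 5 of the 34 others. With that RNA taken out, 6 of 37 were lower, Nrp2, Unc5d, Efnb2, Sema6c, Plxna1 and Ntn4, where 8.37% of all genes were, and Epha4 and Slit2 were higher, where 7.79% were.

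**Figure D4:**
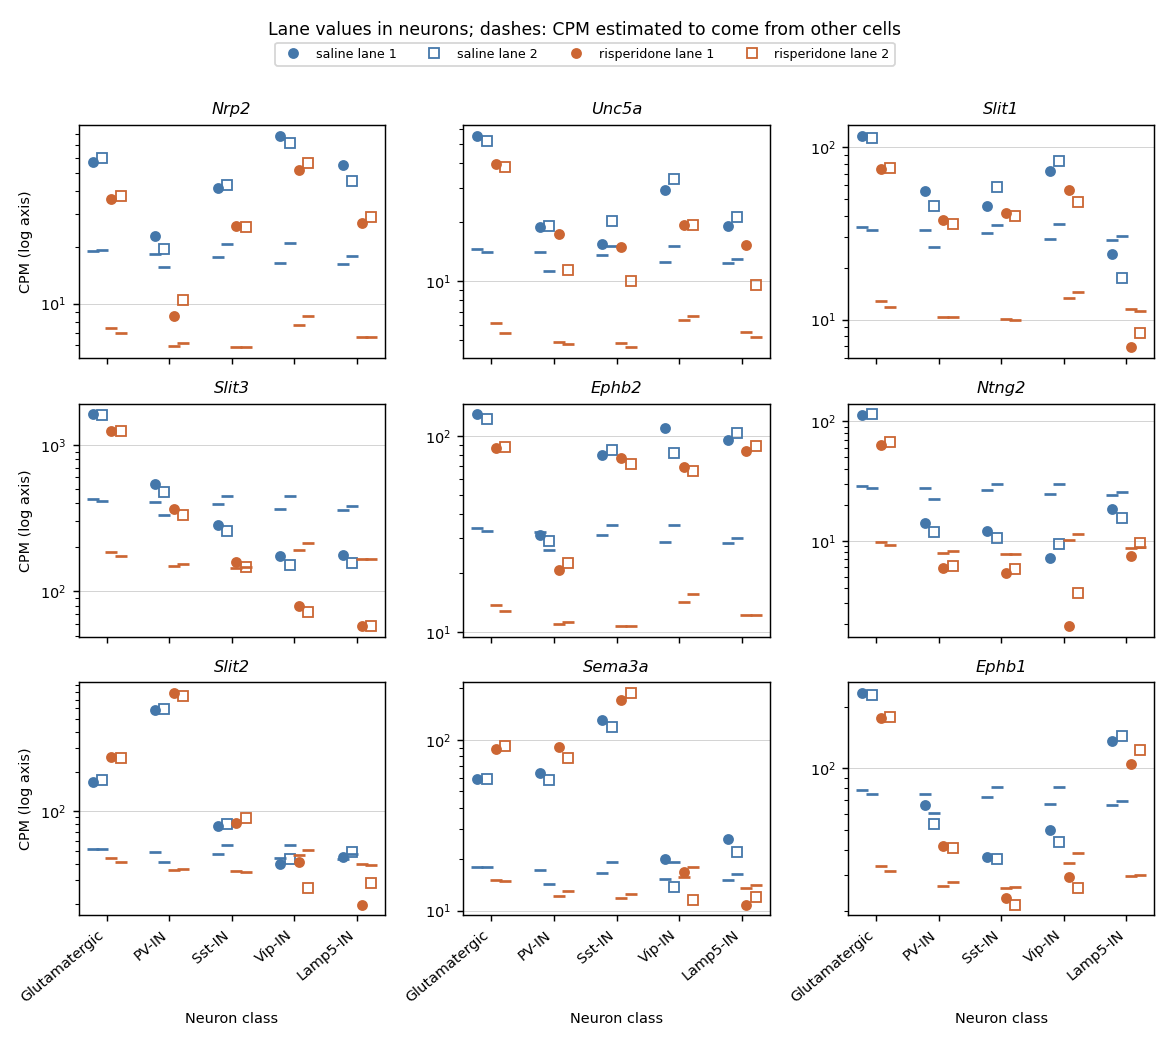
CPM (log axis) of 9 guidance genes in the 4 lanes of 5 neuron classes. Symbols are lanes as named in the legend, and dashes of the same colour are the CPM estimated to come from other cells in that lane. In glutamatergic neurons the symbols of Nrp2, Ntng2, Ephb2 and Slit1 lie well above their dashes in both pools, whereas those of Slit3 in Vip and Lamp5 interneurons lie below them.

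Lower in glutamatergic neurons, PV-INs and Sst-INs alike were 2 of the 38 guidance genes that reached the minimum in all 3, Nrp2 and Unc5a, where 2.62% of 6489 genes were. None was higher in all 3, where 1.88% of genes were. Unc5a in PV-INs had 18.9 and 19.2 CPM in the saline lanes and 17.5 and 11.4 CPM in the risperidone lanes, and in Sst-INs 15.5 and 20.3 CPM in the saline lanes and 14.98 and 10.1 CPM in the risperidone lanes, so in both the lanes of the pools come close to each other. Without risperidone lane 2 Unc5a was under the size of the rule in both, as given below. With RNA of other cells taken out, 0 of the 30 guidance genes then at the minimum in all 3 classes were lower in all 3, where 2.15% of 6085 genes were. Nrp2 was then under the minimum in PV-INs, and Unc5a was under it in PV-INs and Sst-INs, with ratios of 0.16 and 0.65. These 3 classes share the lanes and pools and are no independent repeats.

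Each pool held both sexes, and single nuclei were called female when they held a UMI of Xist and none of 4 Y-linked genes, or male in the opposite case. Female-called were 37.2% and 39.0% of saline and 50.9% and 50.2% of risperidone nuclei by lane, and male-called 18.6% to 20.5%. The pools held as many males as females, yet female-called nuclei outnumbered male-called ones in every lane, and more so for risperidone. A single UMI of Xist could give the call, and RNA of other cells was present in every class. How many calls are wrong was not tested. In glutamatergic neurons the 6 genes past the rule and Slit2 had the same direction in both sets. The ratio in female-called and male-called nuclei was -0.60 and -0.85 for Nrp2, -0.70 and -1.15 for Ntng2, -0.78 and -0.45 for Ephb2, -0.88 and -0.38 for Slit1, and -0.66 and -0.30 for Unc5a. It was 0.72 and 0.18 for Slit2 and 0.55 and 0.38 for Sema3a. In PV-INs Nrp2 was at -1.53 and -0.06, and in Sst-INs Unc5a was at -1.01 and 0.11, both from few UMIs. The differences between the sets were not tested.

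Vip interneurons had 13 of 43 guidance genes past the rule, all lower, where 8.56% of genes were lower and 6.98% higher, and 4 of the 13 had at least 50% of their saline level estimated from other cells. With that RNA taken out, 8 of 39 were lower, where 8.04% of genes were. Ntng1 had 173 and 112 CPM in the saline lanes and 85.5 and 63.8 CPM in the risperidone lanes, with -0.99 (interval -1.22 to -0.77), and its saline lanes were themselves far apart. Sema5b had 164 and 200.4 CPM in the saline lanes and 107 and 141 CPM in the risperidone lanes, with -0.61 (interval -0.79 to -0.43) and an estimate from other cells of 9.09%, and Unc5a had 29.2 and 33.4 CPM in the saline lanes and 19.3 and 19.4 CPM in the risperidone lanes, with -0.77 (interval -1.23 to -0.31). Slit3, at -1.15, and Ephb1, at -0.81, had estimates above 100%. Sema6c was at -0.72 with an estimate of 9.61%, Unc5d at -0.70, Efna5 at -0.68 and Slit1 at -0.65. With clusters weighted alike, Nrp2, Nrp1 and Sema5b came to -0.49, -0.46 and -0.40 in Vip interneurons and were not past the rule, and 10 genes were lower, where 7.9% were. Lamp5 interneurons had 10 of 42, all lower, where 8.16% of genes were lower and 8.35% higher, and for 8 of the 10 at least 50% of the saline level was estimated from other cells. The exceptions were Nrp2, with 54.8 and 45.3 CPM in the saline lanes and 27.1 and 29.1 CPM in the risperidone lanes, and Sema6b, with 16.7 and 16.8 CPM in the saline lanes and 7.38 and 9.98 CPM in the risperidone lanes. The largest ratios in these cells were those of Ntng1 at -1.60, Slit3 at -1.58, Slit1 at -1.47, Sema3a at -1.12, Ntng2 at -1.04, Slit2 at -1.02 and Nrp1 at -0.95, with Sema6b between these last. Once that RNA was taken out, 3 of 33 were lower in Lamp5 interneurons, where 7.53% of genes were, and Epha4 was higher, where 8.9% were. Unc5c, Sema5a and Sema3e, which are highest in Lamp5 interneurons, were not past the rule there, at 0.07, -0.04 and 0.08.

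Astrocytes, oligodendrocytes, OPCs and mural or fibroblast-like cells each had more guidance genes past the rule than any of the 5 neuron classes. Astrocytes had 18 of 43 lower and 0 higher, where 14.1% and 9.23% of genes were, led by Epha6, with 337 and 346 CPM in the saline lanes and 97.2 and 122 CPM in the risperidone lanes, and Slit3, with 172 and 162 CPM in the saline lanes and 53.2 and 59.5 CPM in the risperidone lanes. Next were Slit1 at -1.45, Epha10 at -1.44, Unc5d at -1.31, Ntng1 at -1.23, Efnb2 at -1.21 and Ephb2 at -1.19. For 17 of the 18 at least 50% of the saline level was estimated from other cells, against 12 of the 25 others. The exception was Ephb3, which is highest in astrocytes, with 17.3 and 21.4 CPM in the saline lanes and 12.4 and 11.9 CPM in the risperidone lanes, a ratio of -0.78 (interval -1.31 to -0.26) and an estimate of 16.0%. Robo1 had 531 and 486 CPM in the saline lanes and 275 and 259 CPM in the risperidone lanes, with -1.02 (interval -1.12 to -0.91) and an estimate of 84.9%. The plexin and semaphorins that are highest in astrocytes were close between pools, with Plxnb1 at -0.12, Sema4a at 0.03 and Sema4b at -0.02. With RNA of other cells taken out, 3 of 26 were lower, Epha7, Ephb3 and Robo1, where 8.68% of all genes were, and 3 higher, where 9.7% were. The subclusters of astrocytes were taken very unequally from the pools. The largest was mostly risperidone, at 51, 42, 879 and 721 nuclei by lane, and the next mostly saline, at 750, 767, 67 and 59. The pools thus differ in the subclusters behind the astrocyte ratios. In these subclusters the split is close to that of the pools, so subcluster and pool cannot be told apart. The part of either in the ratios was not tested. With equal weight 10 of 43 were lower and 3 higher, where 11.9% and 10.4% of all genes were. That weighting leans on the few nuclei of the scarcer pool in these subclusters.

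Oligodendrocytes had 20 of 47 lower, where 16.6% of genes were. All 20 had at least 50% of their saline level estimated from other cells, as did 16 of the 26 not past the rule. The largest ratios were those of Ephb6 at -1.36, Unc5a at -1.26, Plxnd1 at -1.23, Slit1 at -1.18, Nrp1 at -1.12, Ntng2 at -1.05, Robo3 at -1.01 and Efna5 at -0.98. Plxnb3 alone was higher, where 14.0% of genes were, with 54.3 and 62.2 CPM in the saline lanes and 117 and 94.8 CPM in the risperidone lanes, a ratio of 0.77 (interval 0.40 to 1.16) and an estimate of 3.52%. Once that RNA was taken out Plxnb3 was at 0.39 and no longer past the rule, 4 of 21 were lower, where 11.3% of genes were, and Nrp2 alone was higher, where 15.7% of genes were. With clusters weighted alike Nrp2 was lower, at -0.53, and 23 genes in all were lower, where 16.2% of genes were. Plxnb3 was higher in OPCs too, with 14.7 and 26.7 CPM in the saline lanes and 42.7 and 40.8 CPM in the risperidone lanes and 0.88 (interval 0.27 to 1.51). In OPCs 14 of 51 were lower, where 12.6% of genes were, 13 of them with at least 50% from other cells and Plxnb1 the exception at -0.65 and 11.97%, and 3 were higher, where 10.1% of genes were. At least 50% was also estimated for 17 of the 34 OPC genes not past the rule. The largest lower ratios were those of Efna5 at -1.78, Epha6 at -1.76, Slit3 at -1.54, Epha10 at -1.53, Nrp1 at -1.29, Unc5d at -1.24, Robo2 at -1.18 and Ntng2 at -0.90. Sema3d was also higher, with 292 and 309 CPM in the saline lanes and 461 and 454 CPM in the risperidone lanes and 0.52 (interval 0.35 to 0.69), and 1.58% of its saline level was estimated from other cells. The third higher gene was Sema3a, at 0.56 (interval -0.03 to 1.15), an interval that holds 0. After RNA of other cells was taken out Sema3d was at 0.0017 and Plxnb3 at 0.44 in OPCs, neither past the rule. This also lowers the lane totals used for scaling, and the measure of that RNA in OPCs differed between pools. It was 46.8% and 51.9% in saline lanes, and 19.2% and 23.6% in risperidone lanes. Then 1 of 30 was lower, Plxnb1, where 9.79% of genes were, and 6 were higher, where 14.8% were. Among the 6 was Ntng2, at 0.57 against -0.90 before. The OPC genes Dcc, Sema6d, Ntn1 and Sema5b were not past the rule, at 0.01, -0.01, 0.10 and 0.08. Mural or fibroblast-like cells had 20 of 46 lower and 3 higher, where 16.2% and 16.1% of genes were, with at least 50% from other cells for 13 of the 20 and 2 of the 3, and Ntn1, second highest there after OPCs, had 153 and 181 CPM in the saline lanes and 224 and 327 CPM in the risperidone lanes and a ratio of 0.67 (interval 0.30 to 1.05). The other higher genes were Sema4d at 0.89 and Sema6a at 0.51, with estimates of 259% and 66.7%. Sema3b, which is highest in these cells, had 20.1 and 10.6 CPM in the saline lanes and 6.80 and 5.28 CPM in the risperidone lanes, with -1.43 (interval -3.61 to 0.47), an interval that holds 0, and an estimate of 0.329%. The other large ratios were those of Sema5b at -2.13, Slit1 at -2.11, Epha6 at -1.35, Epha10 at -1.32, Efnb3 at -1.28, Epha5 at -1.25 and Ephb1 at -1.11, of which Efnb3 had an estimate of 16.5%. The saline pool listed no nuclei under 1364 UMIs and the risperidone pool did, which touches glial and vascular classes of low UMI counts, and its part in these ratios was not tested. Glial subclusters with much Camk2a, a glutamatergic marker, were left unnamed, and unequally by pool. With oligodendrocyte markers scoring best, 1 of these had 724, 796, 399 and 272 nuclei by lane and 889 CPM of Camk2a. The oligodendrocytes kept were 575 saline and 1033 risperidone nuclei. With OPC markers scoring best, another had 222, 225, 103 and 107 nuclei and 804 CPM. The part of this loss in the ratios was not tested either.

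**Figure D5:**
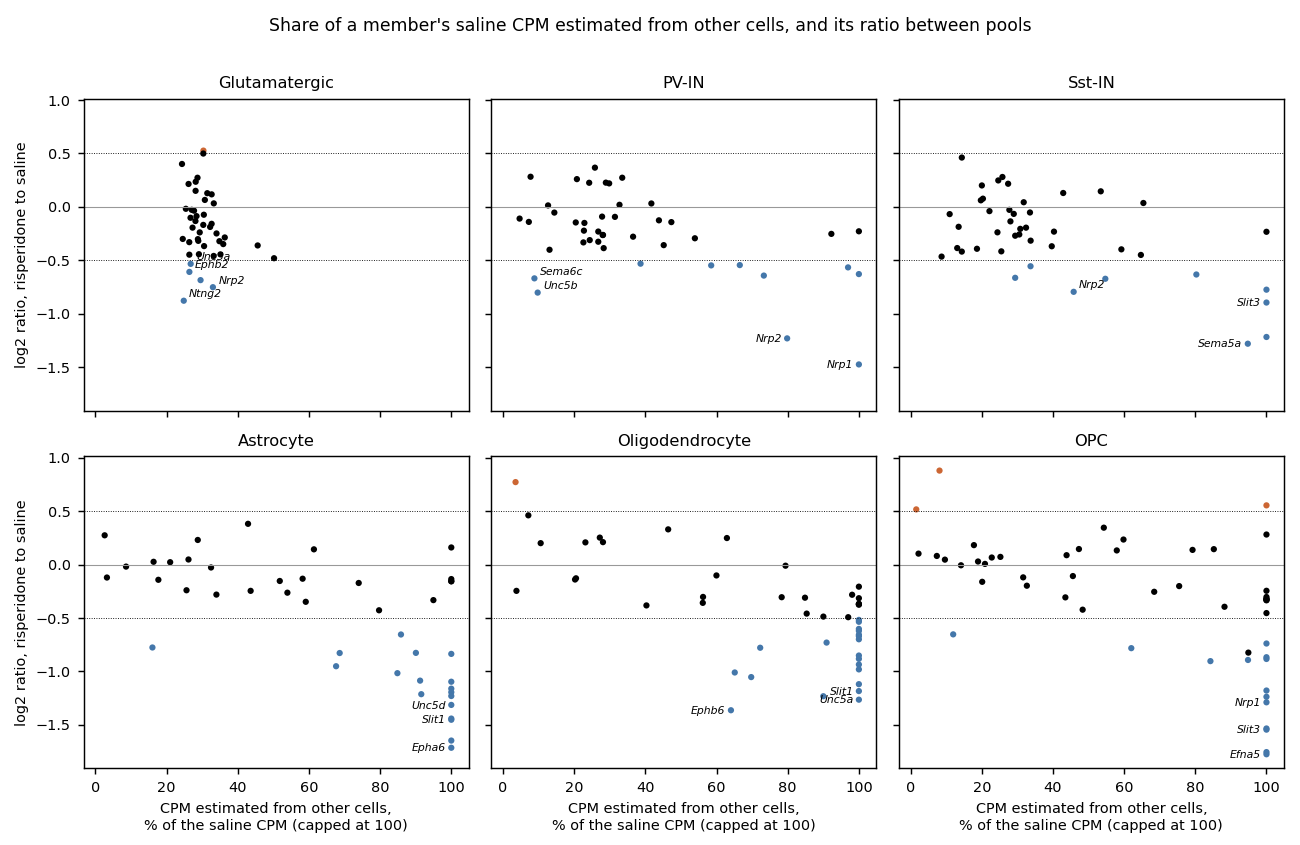
Share of each guidance gene's saline CPM estimated from other cells (x axis, percent, capped at 100) and its log2 ratio of risperidone to saline (y axis) in 6 classes. Blue and orange points are past the rule of size, lower and higher. In oligodendrocytes and OPCs the lower points gather at the right edge and Plxnb3 stands at the left, while in glutamatergic neurons no point is beyond 50.2%.

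Unc5c, Sema6d and Sema3c reached the minimum in all 9 classes and were past the rule in none, with ratios from -0.30 to 0.21, -0.41 to 0.29 and 0.04 to 0.38. By layer class Unc5c was past the rule in layer 5 ET and layer 6 CT neurons, as given above, and in neither once RNA of other cells was taken out, at 0.49 and -0.30. With that RNA out, Sema3c was higher in astrocytes at 0.53 and in claustrum-like neurons at 0.56.

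The striatal-type spiny projection neurons, 963 nuclei of the saline and 632 of the risperidone pool, had 42 guidance genes at the minimum. Their 3 subclusters were taken unequally from the pools, with 44.8% of saline and 25.3% of risperidone nuclei in 1 of them and 14.95% and 33.7% in another. Of these 8 were lower, where 10.6% of genes were, and 4 higher, where 8.31% were, at a median of -0.04 against -0.01 for all genes. Slit2 had 208 and 213 CPM in the saline lanes and 448 and 419 CPM in the risperidone lanes, a ratio of 0.95, with 25.5% of its saline level estimated from other cells. Sema3e, Unc5d and Epha5 were higher too, at 0.60, 0.56 and 0.52. Slit3 had 2223 and 2182 CPM in the saline lanes and 1305 and 1299 CPM in the risperidone lanes, a ratio of -0.84, with an estimate of 19.9%. The other lower genes were Sema7a at -1.42, Sema5a at -0.83, Ntng2 at -0.78, Nrp2 at -0.74, Unc5a at -0.72, Nrp1 at -0.62 and Ephb2 at -0.58. Of these, Sema5a, Ntng2, Nrp2, Nrp1 and Ephb2 had at least 50% of their saline level estimated from other cells, and the lanes of Nrp2 stand apart only after scaling. Once that RNA was taken out, 6 of 36 were higher, where 10.5% of genes were, and 5 lower, where 12.2% were. With the subclusters weighted alike, Slit2 and Slit3 were still past the rule, at 0.61 and -0.62, while Unc5d, Epha5 and Nrp2 were not, at -0.03, 0.40 and -0.61. In all 9 genes were then lower, where 9.5% were, and 3 higher, where 8.51% were.

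Other genes of guidance signalling were counted from a list of 50, co-receptors, further ligands and cytoplasmic effectors. In glutamatergic neurons 7 were lower and 1 higher, 36 were not past the rule and 6 were under the minimum, beside 7.09% of all genes lower and 4.29% higher. Srgap1, a GTPase-activating protein that binds Robo, had 33.6 and 32.3 CPM in the saline lanes and 19.5 and 19.99 CPM in the risperidone lanes, with -0.82 (interval -0.88 to -0.75). Of its saline level 67.2% was estimated from other cells, and without that RNA its ratio was -0.37, not past the rule. Flrt3, an adhesion molecule that binds Unc5 receptors, had 12.1 and 11.7 CPM in the saline lanes and 20.8 and 19.5 CPM in the risperidone lanes, with 0.67 (interval 0.59 to 0.76), an estimate of 31.8%, and 0.66 without that RNA. In PV-INs 4 were lower, 1 higher and 38 not past the rule, and in Sst-INs 3, 1 and 40, where 9.13% and 8.53% of all genes were lower and 7.35% and 6.63% higher. Of the 6489 genes at the minimum in all 3 classes, 2.62% were lower in all 3. From the list this was L1cam, an adhesion molecule and partner of neuropilins, with -0.62, -0.56 and -0.55. In glutamatergic neurons it had 40.8 and 39.97 CPM in the saline lanes and 28.2 and 27.4 CPM in the risperidone lanes, which do not overlap. Its estimates were 28.4%, 35.7% and 25.8%, and without that RNA it was not past the rule in PV-INs, at -0.46. At least 50% was estimated from other cells for 2 of the 7 lower genes of the list in glutamatergic neurons, for 3 of 4 among PV-INs and for 2 of 3 among Sst-INs. With that RNA taken out, 4 of 43, 0 of 41 and 1 of 43 were lower, where 8.18%, 7.92% and 8.37% of all genes were. Higher were then 1, 2 and 1, where 3.66%, 7.67% and 7.79% of all genes were.

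Nuclear RNA is rich in introns, and long genes yield more of it. The 43 guidance genes that reached the minimum in glutamatergic neurons had a median length of 154 kb and the 26 that did not 15.1 kb, beside 50.7 kb for all genes at the minimum. Whether length has a part in the levels or ratios was not tested.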

How the data were processed

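Nuclear RNA of adult mouse cortex was counted on 4 Chromium lanes (10x Genomics GEM-X v4), 2 of the saline pool and 2 of the risperidone pool. Reads were aligned by the authors to mm10 with Cell Ranger 8.0.1, which counts by strand, and the values deposited are UMI counts in filtered matrices, not normalized. All value columns were used. Gene positions were taken from GENCODE vM21.

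Nuclei under 500 genes or above 5% mitochondrial UMIs were removed, as were doublet-like nuclei, taken at 0.4% for each 1000 nuclei of a lane by the share of simulated doublets among neighbours. Nuclei scaled to 10000 were clustered on 2000 variable genes, without the guidance genes, mitochondrial and sex-linked genes, with 30 principal components, 20 neighbours and Louvain resolution 0.5 into 34 clusters. Classes came from marker genes, with thresholds set after the marker levels had been seen, and a cluster with more markers of another class than of its own among its 10 leading genes was left unnamed. Glutamatergic clusters also needed a glutamatergic or layer list as their best-scoring list, chosen after seeing the data. To be named non-neuronal, a cluster or subcluster needed under 450 CPM of Camk2a, a glutamatergic marker. UMI counts were summed per class and lane. Classes with at least 200 nuclei in each pool were compared, striatal-type neurons apart from the 9 others, by log2 ratios scaled with edgeR 4.0.16 TMM factors and exact conditional binomial 95% intervals, which cover counting error only.

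RNA of other cells was estimated per class and lane as the median, over markers of other cells, of their CPM in the class divided by their CPM in the lane. For a gene this median was multiplied by its CPM over all nuclei of the lane, the class itself included. Taking that RNA out also lowers the lane totals used for scaling. Shares of nuclei with a UMI are expected shares after thinning to 2000 UMIs, with shallower nuclei left out, which among glutamatergic nuclei were 2711 and 1212 in saline lanes and 159 and 110 in risperidone lanes.

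Named were all guidance genes at 10 CPM or more with their highest class, lane values for up to 5 per family by the ratio of highest to second class, up to 8 genes past the rule of size per class by size of the ratio, with further ones added, and the 5 genes with most UMIs in glutamatergic neurons that were not. The guidance genes, the pathway list and the rules were chosen with earlier results of these data known. DESeq2 1.42.0 size factors, other filters, weights and clusterings, and leaving out each lane were alternatives. Python 3.11.15, igraph 0.11.9 and R 4.3.3 were used, and scripts were tested on simulated counts. Apart from the changes put in, the simulated pools did not differ, so that test says nothing of differences between real pools.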

Additional observations from a re-analysis of the deposited data

Results flagged for a closer look

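Sema3a was past the rule of size in opposite directions in different classes. Its log2 ratio of risperidone to saline was 0.53 in glutamatergic neurons, 0.56 in OPCs and -1.12 in Lamp5 interneurons. Of its saline level 65.7% was estimated from other cells in Lamp5 interneurons and 116% in OPCs, where the interval of the ratio holds 0. With that RNA taken out it was past the rule in none of the 3, at 0.49 in glutamatergic neurons and under the minimum in the others.

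By sex, Ntng1 in PV-INs was at -0.60 in female-called and 0.62 in male-called nuclei, from 133, 171, 126 and 212 UMIs in the 4 lanes of the former and 63, 89, 140 and 189 UMIs of the latter. Plxna1 in astrocytes was at 1.06 in female-called nuclei, from 6, 8, 19 and 26 UMIs, and at -1.03 in male-called nuclei, from 9, 14, 3 and 4 UMIs. None of these differences between classes or sexes was tested.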

How the results depend on the processing

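No paired analysis was possible because the shared lane numbers name technical runs of 1 pool per condition and the results come from no test. In glutamatergic neurons, PV-INs, Sst-INs and astrocytes the median ratio of the guidance genes stayed below 0 under every alternative tried, while the counts past the rule depended on the minimum, the size and the RNA of other cells. The causes were not tested beyond what each alternative changes. Where a count or median below stands without the value over all genes, it shows how the calls moved. Such a count or median is no comparison of guidance genes with all genes.

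Plain CPM scaling gave medians of -0.11 in glutamatergic neurons, -0.13 in PV-INs, -0.16 in Sst-INs and -0.19 in astrocytes, with 2 genes higher in glutamatergic neurons, 6 lower in PV-INs and 1 higher in Sst-INs. A minimum of 1 CPM gave 15, 20 and 19 lower genes in glutamatergic neurons, PV-INs and Sst-INs, 1 higher gene each in PV-INs and Sst-INs, and medians of -0.27 in glutamatergic neurons and -0.28 in PV-INs. Without a minimum beyond 1 UMI these were 18, 21 and 20 lower, 1 higher in PV-INs, 2 in Sst-INs and 1 in astrocytes, and medians of -0.24 and -0.30. A size of 1 left 0 higher and 0 lower genes in glutamatergic neurons and 2 lower genes each in PV-INs and Sst-INs.

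With doublet-like nuclei kept the median in glutamatergic neurons was -0.22, and a floor of 2000 UMIs gave a median of -0.41 in astrocytes. With RNA of other cells taken out, 0 genes were higher in glutamatergic neurons, 2 in Sst-INs and 3 in astrocytes, 4 were lower in PV-INs and 3 in astrocytes, and the medians were -0.22, -0.17, -0.15 and -0.15 in glutamatergic neurons, PV-INs, Sst-INs and astrocytes. Clusters weighted alike gave 0 higher in glutamatergic neurons, where 3.75% of all genes were, at a median of -0.15. In astrocytes this gave 3 higher and 10 lower, where 10.4% and 11.9% of all genes were, at a median of -0.12. Nuclei weighted alike gave 1 higher in Sst-INs and a median of -0.24 in glutamatergic neurons. Female-called nuclei gave 2 higher and 9 lower in glutamatergic neurons, 1 higher each in Sst-INs and astrocytes, and a median of -0.12 in Sst-INs. Male-called nuclei gave 1 higher each in PV-INs and astrocytes, and medians of -0.10, -0.14 and -0.40 in PV-INs, Sst-INs and astrocytes. Without asking for the best-scoring list, an alternative added after seeing the data that keeps a cluster led by genes of cilia, 2 genes were higher in glutamatergic neurons, as Slit2 came to 0.5011.

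Leaving out 1 lane at a time gave 1 to 2 higher and 5 to 6 lower genes in glutamatergic neurons with medians of -0.23 to -0.18, 0 higher and 9 to 11 lower in PV-INs with -0.28 to -0.20, 0 to 1 higher and 8 to 11 lower in Sst-INs with -0.28 to -0.19, and 0 to 2 higher and 17 to 21 lower in astrocytes with -0.43 to -0.30. Slit2 in glutamatergic neurons was past the rule without saline lane 2, at 0.54, and without risperidone lane 2, at 0.51, and Sema3a came to 0.49 without risperidone lane 2. Unc5a came to -0.23 in PV-INs without risperidone lane 2, and to -0.39 and -0.37 in Sst-INs without saline lane 2 and risperidone lane 2. Efnb2 came to -0.49 in both without saline lane 2, and without risperidone lane 2 to -0.38 in PV-INs, with -0.36 in Sst-INs. Slit1 in PV-INs came to -0.43 without saline lane 1 and Sema7a in Sst-INs to -0.47 without risperidone lane 2.

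In these 4 classes, reversed with RNA of other cells taken out were Ephb2 and Unc5a in PV-INs, at 2.39 and 0.16, and Unc5a in Sst-INs, at 0.65, all then under the minimum, Slit3 and Slit1 in PV-INs, at 0.18 and 0.017, not past the rule, and Ntng2 in astrocytes, at 0.89 and past it. Over the classes compared, without mural or fibroblast-like cells where this alternative was not run, and striatal-type neurons, 15 of 179 pairs of a gene and a class past the rule reversed, 9 of them then under the minimum and 2 past the rule the other way, Ntng2 in astrocytes and OPCs. Reversed with clusters weighted alike were Plxna4, Epha3 and Slit1 in astrocytes, at 0.0138, 0.0486 and 0.33, and in male-called nuclei Unc5a in Sst-INs, at 0.11.

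With 1 pool per condition, a difference between treatments cannot be told apart from one between pools, and endothelial nuclei and microglia of the saline pool are too few to compare.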
